A study of Schizosaccharomyces pombe with 20 samples.

Results

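The 10 genes described here act in the oxidative and core environmental stress responses of the fission yeast Schizosaccharomyces pombe. They were chosen by name, with earlier results of these data known, out of 5095 genes with an exon probe on the array. They are gst1 (SPCC191.09c), gst2 (SPCC965.07c), grx2 (SPAC15E1.09), ctt1 (SPCC757.07c), srx1 (SPBC106.02c), tpx1 (SPCC576.03c), trr1 (SPBC3F6.03), gpd1 (SPBC215.05), tps1 (SPAC328.03) and SPAC27D7.09c. All 10 had an exon probe, which reports total mRNA. The intron probes were 4, of which 3 lie in grx2 and 1 in trr1, and the exon–exon junction probes were 3, all in grx2.

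The study asked which nonessential genes affect pre-mRNA splicing, and followed up deletion strains on splicing sensitive microarrays. The 12 strains were labelled as lacking a known or predicted splicing factor (Δsmd3, Δaar2, Δpwi1, ΔSPAC20H4.06c and ΔSPCC162.01c), a factor tied to nuclear RNA silencing (Δctr1 and ΔSPAC18G6.13), a subunit of the Set1 histone methyltransferase complex (Δash2 and Δswd1), the histone variant H2A.Z (Δpht1), or a factor of mRNA 3′ end processing (Δppn1 and Δssu72). All 12 were Bioneer strains whose label carries the KanR marker, and the control in all cases was the Bioneer strain ED666, whose label names no marker, so that KanR and the deletion cannot be told apart. Cells were grown in YES medium in 25 ml cultures to an optical density of 0.5, with no stress agent named and each culture read as a whole, and 8 strains had 2 separately grown biological replicates while Δash2, Δpht1, ΔSPCC162.01c and Δswd1 had 1 array each. Those single arrays were all labelled replicate 1.

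Each value is the log2 of the signal in the deletion strain over that in wild type, so that 0 is no difference and 1 is a doubling. The mutant was in Cy3 on all 20 arrays, with no dye swap, so that a dye effect common to all arrays cannot be told apart from a difference common to all strains. The sources used here do not say whether the arrays shared a wild-type RNA. The comparisons of the 12 strains with wild type are not independent of each other.

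Fission yeast meets peroxide with a pair of transcription factors. Pap1 acts mainly at low doses and Atf1, downstream of the MAP kinase Sty1, at higher doses and in most other stresses. Their targets include catalase, the peroxiredoxin and thioredoxin cycle, glutathione-dependent enzymes, and enzymes that make the protectants trehalose and glycerol. A set of these genes responds to nearly every stress and is known as the core environmental stress response.

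Several facts about the arrays bear on the values. Exon values were present for 4393 to 5027 probes per array. The deleted gene's own exon probe read below all arrays of other strains on 14 of 20 arrays, at -6.45 to -1.19, and did not do so on 6, namely both arrays labelled Δsmd3, both labelled ΔSPAC18G6.13, replicate 2 labelled Δctr1 and the single array labelled ΔSPCC162.01c. On the last of these the SPCC162.01c probe read 0.59, above all 19 other arrays. The others read -0.93 to -0.26, inside the range of arrays of other strains. These 6 arrays are named by their label throughout, and a direction drawn from the arrays labelled Δsmd3 or ΔSPAC18G6.13, or from the Δctr1 mean, rests on a label that the deleted gene does not bear out. Replicate 1 labelled Δsmd3 stood furthest apart in total mRNA, with exon values that correlated at -0.27 to 0.08 with the other 19 arrays (median r of -0.08), including 0.08 with its own replicate 2. The array labelled ΔSPCC162.01c had a median r of 0.31, and the 153 pairs without these 2 arrays ran from 0.20 to 0.92 with a median of 0.54. The array labelled ΔSPCC162.01c also held 4857 intron values against 730 to 4229 on the others. No pair of arrays correlated below -0.3.

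In total mRNA, 4 of the 10 genes were higher than wild type in at least 1 strain and none was called lower. The 4 were gst2, SPAC27D7.09c, srx1 and tps1, in 7 of the 12 strains. Of 94 tests of these genes, 11 passed as higher, or 11.7%, where 0.941% of all exon probe tests did, and 0 passed as lower, where 0.873% of all did (limma, Benjamini–Hochberg adjusted over the exon probes of each strain, adjusted p under 0.05). At an unadjusted p under 0.05, 45 of the 94 tests passed, where 19.3% of all exon probe tests did. These counts are from fits without the replicate number. With that number as a block, more tests were called higher. gst2 and grx2 were then called lower on the array labelled ΔSPCC162.01c, as given in the last section. A test needs a value on all arrays of the strain, and trr1, srx1 and grx2 had this in 12 strains, ctt1, tps1 and SPAC27D7.09c in 11, gst1 in 9, gst2 and gpd1 in 7 and tpx1 in 2. With limma's mean–variance trend and robust moderation in place of the plain variance model, 1 of the 11 calls was left, srx1 on the array labelled ΔSPCC162.01c (adjusted p = 0.049). Leaving out 1 array at a time gave 7 to 20 calls, with the lowest count without replicate 1 of Δctr1 or either array labelled ΔSPAC18G6.13, and with 20 and 19 calls without replicates 1 and 2 labelled Δsmd3.

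**Figure D1:**
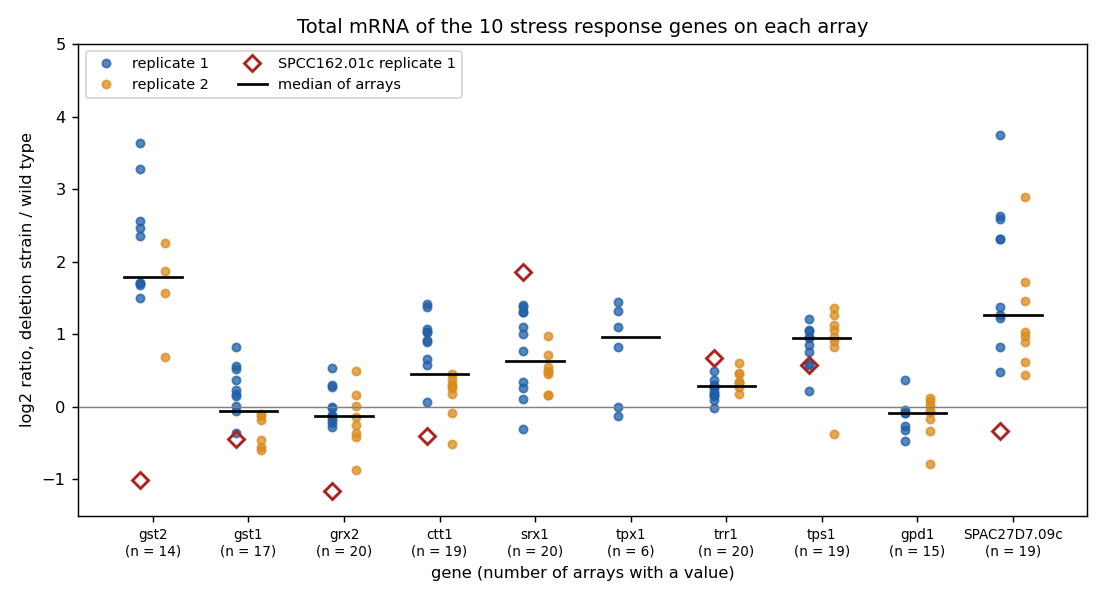
Total mRNA of the 10 genes on each array, as the log2 ratio to wild type (vertical axis), with 1 point per array, replicate 1 in blue, replicate 2 in orange, the array labelled ΔSPCC162.01c as an open diamond, and the median of all arrays with a value as a black line. gst2 and SPAC27D7.09c reached 3.64 and 3.74, while gst1, grx2 and gpd1 had medians of -0.06, -0.13 and -0.08.

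The peroxide-scavenging enzymes are described first. ctt1 encodes catalase, which breaks down hydrogen peroxide. It had a value on 19 arrays, with a lowest value of -0.51, a median of 0.45 and a highest value of 1.42, and it was above 0 on 16. The highest readings were 1.42 in Δpht1, 1.37 on replicate 1 of Δctr1 and 1.067 on replicate 1 of ΔSPAC20H4.06c. The 3 arrays below 0 were replicate 2 of Δssu72 at -0.51, the array labelled ΔSPCC162.01c at -0.40 and replicate 2 of Δpwi1 at -0.08.

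The replicates of a strain were far apart for catalase. In Δctr1 they read 1.37 and 0.18, and in Δssu72 0.58 and -0.51. Replicate 1 exceeded replicate 2 in 6 of 7 strains with both, with a median difference of 0.69. The medians over all arrays with a value were 0.92 for 11 of replicate 1 and 0.28 for 8 of replicate 2, which are not the same strains. No strain passed the test. The 2 strains under an unadjusted p of 0.05 were Δpht1 at 1.42 (SE 0.48, n = 1, adjusted p = 0.126 by limma) and Δctr1 at 0.78 (SE 0.34, n = 2, adjusted p = 0.174 by limma).

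tpx1 encodes the main cytosolic 2-Cys peroxiredoxin, which reduces peroxides and passes the oxidation on to other proteins. It was measured on 6 arrays, all of them replicate 1. The log2 ratios were 1.45 in Δpht1, 1.32 in Δctr1, 1.10 in Δswd1, 0.83 in Δppn1, -0.01 in Δpwi1 and -0.12 in Δaar2. The Δpwi1 reading, -0.0088, is a value that 49 other probes of that array share to the last digit, and what set it was not tested. Only Δpht1 and Δswd1 had a value on all of their arrays and could be tested, and neither passed (adjusted p = 0.074 and 0.127 by limma).

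srx1 encodes sulfiredoxin, which repairs overoxidised peroxiredoxin. It had a value on all 20 arrays and was above 0 on 19, with a lowest value of -0.30, a median of 0.63 and a highest value of 1.85. The highest was the array labelled ΔSPCC162.01c, followed by Δpht1 at 1.402, Δswd1 at 1.38, replicate 1 of Δppn1 at 1.30 and Δash2 at 1.30. The lowest were replicate 1 of Δaar2 at -0.30 and replicate 1 of Δpwi1 at 0.11. srx1 mRNA was called higher on the array labelled ΔSPCC162.01c, 3.62-fold (log2 1.85, SE 0.34, adjusted p = 0.042 by limma), and in Δpht1, 2.64-fold (log2 1.402, SE 0.34, adjusted p = 0.044 by limma).

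Both srx1 calls came from strains with 1 array, whose error is borrowed from the other strains. In these 2 strains 0.226% and 1.12% of all exon probes were called higher. The adjusted p rose to 0.052 to 0.072 when 1 array labelled ΔSPAC18G6.13, Δctr1, Δpwi1 or Δssu72 was left out. Among strains with 2 arrays, those labelled ΔSPAC18G6.13 read 1.10 and 0.98, with an adjusted p of 0.056 by limma, and those of Δctr1 read 0.77 and 0.72. The pairs were wide apart in Δppn1, at 1.30 and 0.48, and in ΔSPAC20H4.06c, at 1.001 and 0.16.

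trr1 encodes thioredoxin reductase, which uses NADPH to keep thioredoxin reduced and so regenerates peroxiredoxin. Its total mRNA was the least variable of the genes with a value on all 20 arrays, from -0.01 to 0.67 with a median of 0.29, and it was above 0 on 19 arrays. The highest reading was the array labelled ΔSPCC162.01c at 0.67 and the next replicate 2 of Δaar2 at 0.60. Replicate 1 was the lower of the pair in 7 of 8 strains, the opposite of catalase, with a median difference of -0.15. The medians over all arrays were 0.23 for 12 of replicate 1 and 0.34 for 8 of replicate 2. No strain passed, and the smallest adjusted p by limma was 0.091, in Δctr1 with readings of 0.37 and 0.47. The strain means had an SD of 0.15 around 0.32.

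The glutathione-dependent enzymes split. gst1 and gst2 encode glutathione S-transferases, which join glutathione to reactive compounds. gst2 had a value on 14 arrays, with a lowest value of -1.003, a median of 1.79 and a highest value of 3.64, and it was above 0 on 13. Replicate 1 of Δctr1 read 3.64, Δash2 3.28 and Δswd1 2.56. The one array below 0 was that labelled ΔSPCC162.01c at -1.003, and the lowest of the other 13 was replicate 2 of Δssu72 at 0.69, with no array in between. No value was present on 6 arrays, namely both labelled Δsmd3, that of Δpht1 and replicate 2 labelled Δctr1, Δpwi1 and ΔSPAC18G6.13.

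gst2 could be tested in 7 strains and was called higher in 4. The readings in ΔSPAC20H4.06c were 2.47 and 2.26, a mean of 2.37 or 5.16-fold (SE 0.22, n = 2, adjusted p = 0.013 by limma), and 0.0651% of all exon probes were called higher there. In Δppn1 they were 1.71 and 1.87, a mean of 1.79 or 3.46-fold (SE 0.22, n = 2, adjusted p = 0.0081 by limma), against 1.83% of all probes. In both strains the replicates lay close together and far from 0.

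The single arrays of Δash2 and Δswd1 gave gst2 increases of 9.68-fold (log2 3.28, SE 0.31, adjusted p = 0.016 by limma) and 5.90-fold (log2 2.56, SE 0.31, adjusted p = 0.015 by limma), in strains where 0.208% and 1.65% of all exon probes were called higher. Δaar2 read 1.71 and 1.57 and just missed the threshold (adjusted p = 0.052 by limma), as did Δssu72 at 1.68 and 0.69 (adjusted p = 0.063). After each array was centred on its exon probes, both passed (adjusted p = 0.045 and 0.047). The Δppn1 call was lost without either Δppn1 array (adjusted p = 0.115 without replicate 1 and 0.118 without replicate 2), and that in ΔSPAC20H4.06c without either of its own (adjusted p = 0.440 and 0.073). The calls in Δash2 and Δswd1 rest on 1 array each and could not be checked in this way.

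gst1, the paralog of gst2, had no such increase. Its 17 readings ran from -0.60 to 0.83 with a median of -0.06, and 8 were above 0. The lowest was replicate 2 of Δaar2, and the 2 replicates of Δppn1 read 0.83, the highest, and -0.56. In all 5 strains with both replicates, replicate 1 was the higher. No strain passed the test and none had an unadjusted p under 0.05. The sources used here give no probe sequences, so how far either probe also binds the other transcript was not tested.

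**Figure D2:**
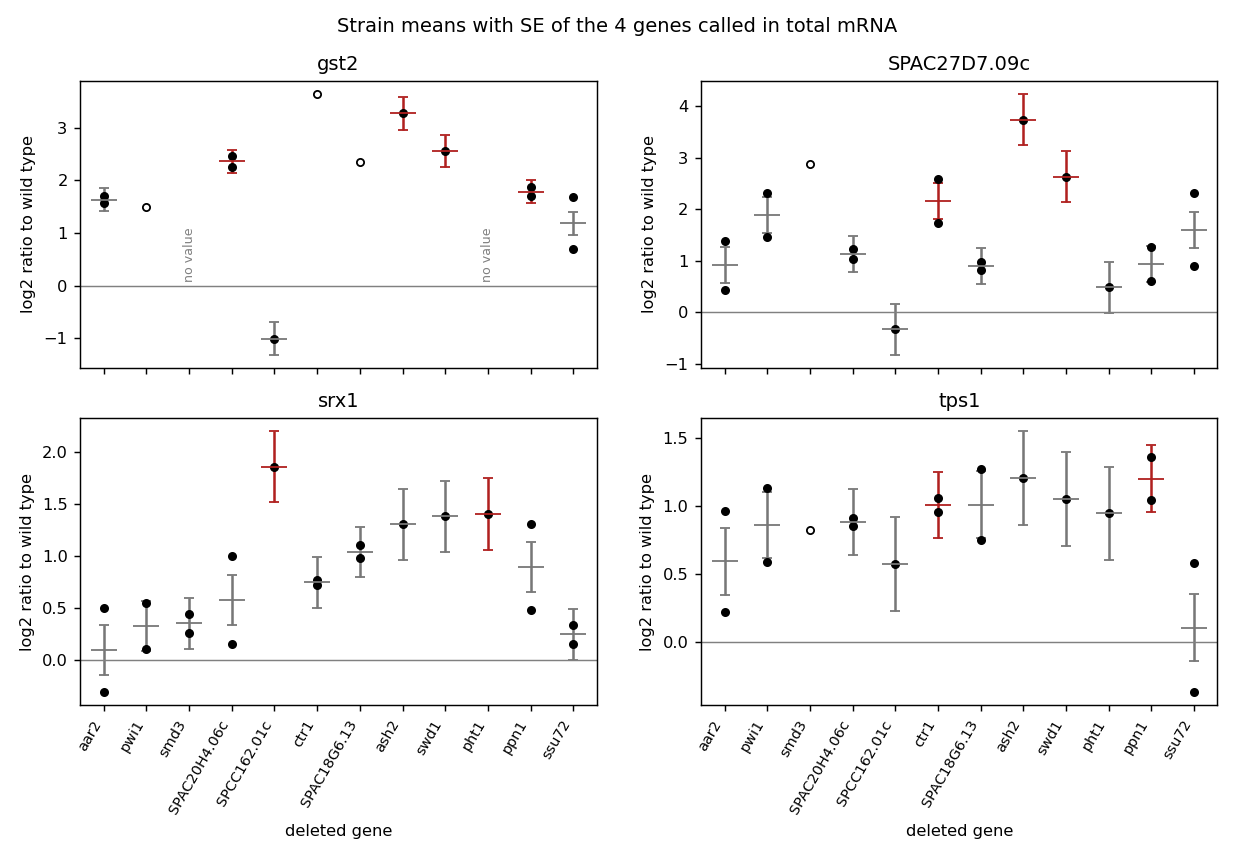
Total mRNA of gst2, SPAC27D7.09c, srx1 and tps1 in the 12 deletion strains (log2 ratio to wild type on the vertical axis). Filled points are single arrays of strains that could be tested, open points are arrays of strains measured on 1 of 2 arrays and not tested, and the bars are the strain mean with its SE, in red where the adjusted p was under 0.05. Δash2 read 3.28 for gst2 and 3.74 for SPAC27D7.09c, while the array labelled ΔSPCC162.01c read -1.003 and -0.33 for these genes and 1.85 for srx1.

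grx2 encodes a glutaredoxin, an oxidoreductase that uses glutathione to reduce protein disulfides. Its total mRNA had a value on all 20 arrays, from -1.16 to 0.54 with a median of -0.13, and 14 arrays were below 0. The lowest was the array labelled ΔSPCC162.01c at -1.16 and the next replicate 2 labelled Δsmd3 at -0.87. The highest were Δpht1 at 0.54 and replicate 2 of Δssu72 at 0.50. No strain passed against wild type, and the smallest adjusted p by limma was 0.079, on the array labelled ΔSPCC162.01c.

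The enzymes that make protectants also split. tps1 encodes trehalose-6-phosphate synthase, which makes the precursor of the protective sugar trehalose. It had a value on 19 arrays and was above 0 on 18, with a lowest value of -0.37, a median of 0.95 and a highest value of 1.36. The one array below 0 was replicate 2 of Δssu72. tps1 mRNA was called higher in Δppn1, where the arrays read 1.04 and 1.36 (mean 1.20 or 2.30-fold, SE 0.24, adjusted p = 0.029 by limma), and in Δctr1, where they read 0.96 and 1.06 (mean 1.01 or 2.01-fold, SE 0.24, adjusted p = 0.045 by limma). In Δctr1, 2.86% of all exon probes were called higher. The reading of 1.06 came from replicate 2 labelled Δctr1, on which the deleted gene was not low.

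The tps1 call in Δppn1 was lost without either of its own arrays (adjusted p = 0.235 and 0.223). The call in Δctr1 lay close to the threshold, with an adjusted p of 0.052 to 0.064 without an array labelled Δaar2, Δppn1, ΔSPAC18G6.13 or ΔSPAC20H4.06c and of 0.244 to 0.254 without one of its own. Without the 6 arrays on which the deleted gene was not low, among them replicate 2 labelled Δctr1, it was lost (log2 0.96, adjusted p = 0.194), as was the srx1 call in Δpht1 (adjusted p = 0.066). Replicate 2 was the higher of the pair in 6 of 7 strains. Of 11 strains tested, 9 had an unadjusted p under 0.05, including Δash2 at 1.21, Δswd1 at 1.05 and the arrays labelled ΔSPAC18G6.13 at 0.75 and 1.27.

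gpd1 encodes the glycerol-3-phosphate dehydrogenase that makes glycerol as an osmolyte. Its 15 readings ran from -0.80 to 0.37 with a median of -0.08, and 4 were above 0. The lowest was replicate 2 labelled ΔSPAC18G6.13 and the highest replicate 1 of Δpwi1. No strain passed, and the pairs of readings were -0.26 and -0.33 in ΔSPAC20H4.06c and -0.05 and -0.05 in Δppn1. No value was present in Δash2 or on the array labelled ΔSPCC162.01c.

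SPAC27D7.09c encodes a But2 family protein of unknown function that is induced in many stresses. It had a value on 19 arrays and was above 0 on 18, with a lowest value of -0.33, a median of 1.26 and a highest value of 3.74. The highest were Δash2 at 3.74, replicate 2 labelled Δsmd3 at 2.88, Δswd1 at 2.63 and replicate 1 of Δctr1 at 2.59. The lowest was the array labelled ΔSPCC162.01c, and the lowest 2 of the rest were replicate 2 of Δaar2 at 0.44 and Δpht1 at 0.48.

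SPAC27D7.09c was called higher in 3 strains. The Δash2 array gave 13.4-fold (log2 3.74, SE 0.50, adjusted p = 0.019 by limma) and the Δswd1 array 6.19-fold (log2 2.63, SE 0.50, adjusted p = 0.032 by limma). In Δctr1 the arrays read 2.59 and 1.73, a mean of 2.16 or 4.46-fold (SE 0.35, n = 2, adjusted p = 0.020 by limma). The Δctr1 call was lost without its replicate 1 (log2 1.73, adjusted p = 0.254) and held without its replicate 2, on which the deleted gene was not low (log2 2.59, adjusted p = 0.013). That in Δswd1 was lost without an array labelled ΔSPAC18G6.13 (adjusted p = 0.055) or ΔSPAC20H4.06c (adjusted p = 0.051). Δpwi1 at 2.32 and 1.45 and Δssu72 at 2.31 and 0.89 did not pass (adjusted p = 0.119 and 0.067), and replicate 1 was the higher in 6 of 7 strains.

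Averaged over strains, several of these genes stood near the top of the array. Among 4230 exon probes with a value in all 12 strains, SPAC27D7.09c ranked 16 with a mean log2 ratio of 1.58, tps1 ranked 81 at 0.86, srx1 83 at 0.85 and ctt1 190 at 0.55. trr1 had a mean of 0.32. The median of all probes was 0.01, the 95th percentile 0.53 and the 99th percentile 1.05. gst1 and grx2 ranked 1979 and 3056. tps1, srx1 and trr1 had a strain mean above 0 in all 12 strains, which 7.97% of these probes did. gst2, tpx1 and gpd1 lacked a value in at least 2 strains and were not ranked. Because the wild type was the control on all arrays, a mean over strains holds anything particular to the wild-type samples or to a dye.

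Differences among strains were therefore tested on their own. None of the 7 genes with a value in every strain differed among the 12 strains by the F test in limma, where 0.378% of 4230 probes did. The smallest adjusted p was 0.157 for SPAC27D7.09c (F = 6.11), followed by 0.295 for srx1 (F = 3.68), and both had an unadjusted p under 0.05 (0.0029 and 0.017), as 12.6% of all probes did. The SPAC27D7.09c strain means ran from -0.33 to 3.74. With the replicate number as a block, SPAC27D7.09c passed this test. Some of the contrasts that follow also passed with that block.

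Each strain was then compared with the mean of the other 11, which takes off what all strains share. It does not take off a shift between replicate numbers, since the 4 strains with 1 array hold replicate 1 only. A strain entered with a value on at least 1 of its arrays. None of the 84 tests of the 7 genes passed in limma where 0.0887% of all tests passed as higher and 0.158% as lower, and 12 had an unadjusted p under 0.05, where 8.24% of all did. The 3 smallest adjusted p-values were on the array labelled ΔSPCC162.01c. On that array 0.686% of all exon probes passed as lower and 0.615% as higher, the largest shares of any strain. There SPAC27D7.09c was below the others by a log2 difference of -2.08 (SE 0.51, adjusted p = 0.074 by limma), grx2 by -1.11 (SE 0.31, adjusted p = 0.092 by limma), and srx1 was above them by 1.09 (SE 0.35, adjusted p = 0.133 by limma).

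gst2 has no value in 2 strains and so was outside that test. With the mean taken over the other strains that have a value, a comparison added after the values were seen, gst2 on the array labelled ΔSPCC162.01c was lower than the 9 other strains by a log2 difference of -3.26 (SE 0.32, adjusted p = 0.0056 by limma), where 0.116% of all tests passed as lower and 0.0677% as higher. No other gene passed in that comparison, and SPAC27D7.09c had an adjusted p of 0.086 there. The same array was thus the highest of 20 for srx1 and trr1, the lowest of 14 for gst2, of 20 for grx2 and of 19 for SPAC27D7.09c, and the second lowest of 19 for ctt1. The shares of 0.116% and 0.0677% are over all strains. Among probes with a value in every strain, this array had the largest shares of any strain, as given above. As its deleted gene was not low, the genotype of that sample cannot be told from these data.

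**Figure D3:**
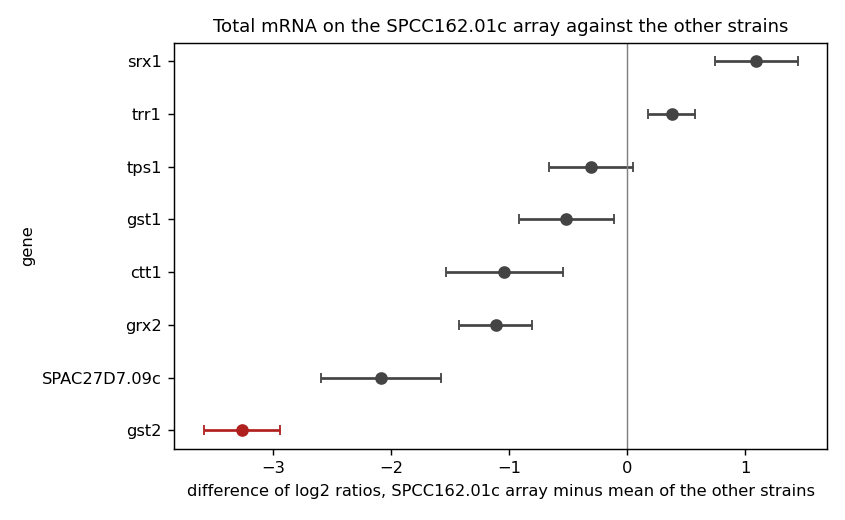
Total mRNA of 8 genes on the array labelled ΔSPCC162.01c minus the mean of the other strains with a value (horizontal axis, difference of log2 ratios), with the SE as bars and the gene with an adjusted p under 0.05 in red. gst2 lay at -3.26 and SPAC27D7.09c at -2.08, while srx1 lay at 1.09 and trr1 at 0.38.

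The 2 members with introns allowed pre-mRNA and mature mRNA to be read separately. Intron probes report pre-mRNA and junction probes report mature mRNA, each as a log2 value against wild type. The intron value minus the junction value on the same array is called the ratio here. A ratio above 0 means that pre-mRNA, relative to mature mRNA, was higher in the deletion strain than in wild type. It does not tell which form was the more abundant. Introns are present only before splicing, so a splicing defect raises the intron reading and lowers that of the junction. Of 22 tests of that ratio for grx2, 5 passed as higher, or 22.7%, where 12.5% of all events in the same strains did, and 0 as lower, where 0.226% did (limma). At an unadjusted p under 0.05, 9 of those 22 passed, 8 of 34 junction tests and 4 of 33 intron tests, where 23.7%, 20.3% and 23.1% of all did. Of 34 junction tests 3 passed as lower and 0 as higher, where 2.76% and 0.363% of all did, and of 33 intron tests 1 passed as higher and 2 as lower, where 11.4% and 0.465% of all did.

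grx2_intron2 carried most of the ratio calls. Its ratio was above 0 on 17 of 19 arrays, from -0.63 to 1.57 with a median of 0.72. It was called higher in the arrays labelled Δsmd3, at 0.72 and 1.57 (mean 1.15, SE 0.31, adjusted p = 0.0050 by limma), and in those labelled ΔSPAC18G6.13, with values at 0.68 and 1.30 (mean 0.99, SE 0.31, adjusted p = 0.024 by limma). The other calls were in Δpwi1, with arrays at 0.83 and 1.09 (mean 0.96, SE 0.31, adjusted p = 0.047 by limma), and in Δctr1, with arrays at 1.30 and 0.57 (mean 0.94, SE 0.31, adjusted p = 0.042 by limma).

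These are strains in which 61.5%, 28.4%, 14.6% and 22.9% of all events had a higher ratio, so grx2_intron2 was 1 of many there. In Δaar2 the arrays read 1.402 and 0.78 and the ratio was not called. The Δctr1 and Δpwi1 calls were lost without an array of Δaar2 (adjusted p = 0.064 and 0.067) or of ΔSPAC20H4.06c (0.051 and 0.059) or labelled ΔSPAC18G6.13 (0.055 and 0.058), that in Δpwi1 also without either array of Δppn1 (0.058), and that in Δctr1 also without either array of Δpwi1 (0.060). Each of the 4 was lost without an array of its own, at 0.923 for replicate 1 of Δctr1, 0.259 and 0.529 for replicates 1 and 2 of Δpwi1, 0.195 for replicate 2 labelled Δsmd3, and 0.151 and 0.319 for replicates 1 and 2 labelled ΔSPAC18G6.13. Without replicate 1 labelled Δsmd3, the array that stood apart in total mRNA, that strain's ratio was 1.57 (adjusted p = 0.0094), and without replicate 2 labelled Δctr1 the Δctr1 ratio was 1.30 (adjusted p = 0.011).

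grx2_intron1 behaved differently. Its intron probe read -1.26 and -0.66 in the arrays labelled Δsmd3 and was called lower there (mean -0.96, SE 0.25, adjusted p = 0.0049 by limma), where 50% of all intron probes were called higher and 0.649% lower. In those labelled ΔSPAC18G6.13 it read -1.14 and -0.28 and was also called lower (mean -0.71, SE 0.25, adjusted p = 0.049 by limma), where 23.5% of all were higher and 1.55% lower. The intron reading was above 0 in ΔSPAC20H4.06c, at 0.64 and 0.76, in Δctr1, at 0.52 and 0.25, and in Δaar2, at 0.04 and 0.12, with no call. The deleted gene was not clearly low on any array of the 2 strains with a call, and without those arrays no lower intron call was left.

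The grx2_intron1 calls also turned on single arrays. In the arrays labelled Δsmd3 the intron call was lost without replicate 1, the one that stood apart (-0.66, adjusted p = 0.167). In those labelled ΔSPAC18G6.13 it was lost without replicate 1 (-0.28, adjusted p = 0.848) and at an adjusted p of 0.050 to 0.076 without an array of Δaar2, Δppn1, Δpwi1, ΔSPAC20H4.06c or Δssu72. The junction 1 reading of -3.26 on replicate 1 of Δctr1, against -0.71 on replicate 2, gave that strain a call beside 1.65% of all junction probes (mean -1.99, SE 0.45, adjusted p = 0.048 by limma), and without replicate 1 the adjusted p was 0.385. That junction call was also lost, at an adjusted p of 0.060 to 0.075, without an array labelled Δaar2, Δppn1, Δpwi1, ΔSPAC18G6.13, ΔSPAC20H4.06c or Δssu72. The same junction reading enters the fifth ratio call, grx2_intron1 in Δctr1, with arrays at 3.78 and 0.96 (mean 2.37, SE 0.54, adjusted p = 0.020 by limma), and without replicate 1 the ratio of 0.96 had an adjusted p of 0.923. Without replicate 2, on which the deleted gene was not low, both calls held (adjusted p = 1.8e-04 for the junction and 5.1e-05 for the ratio).

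**Figure D4:**
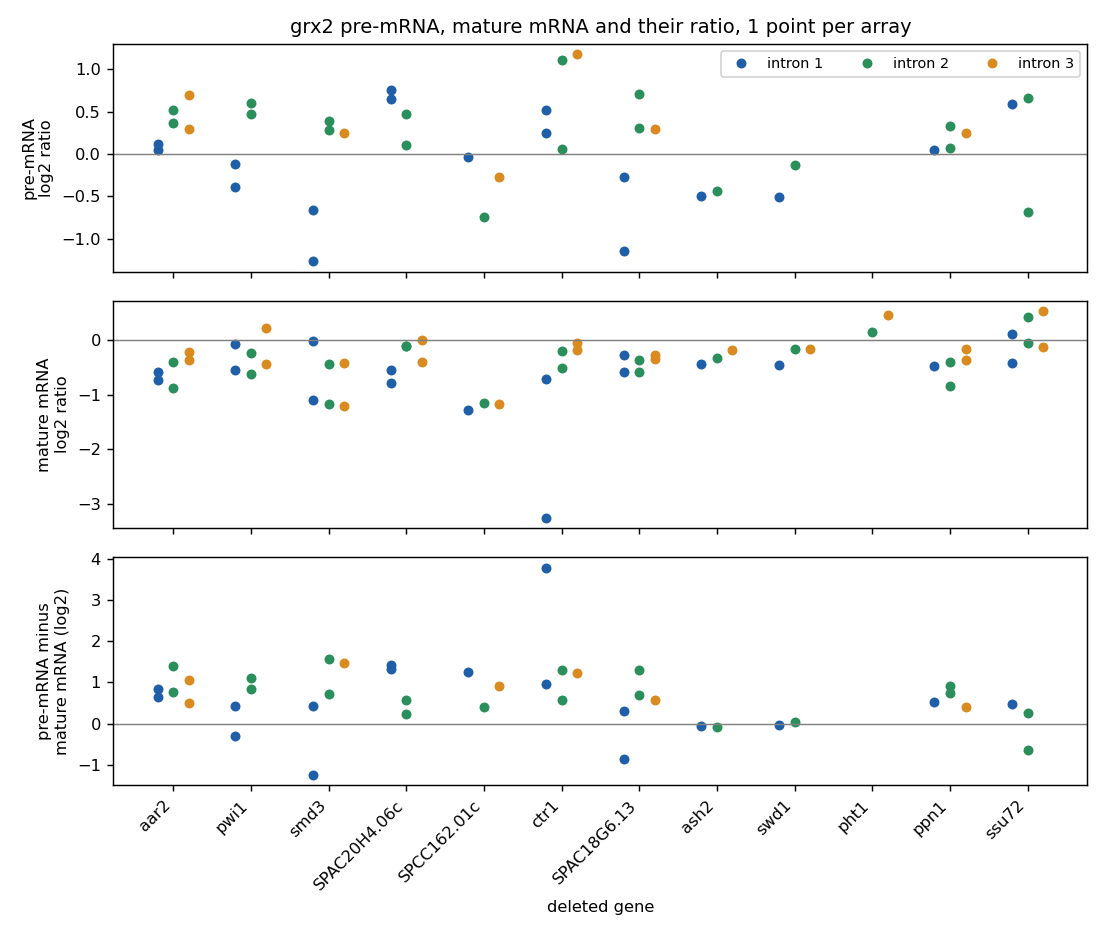
grx2 pre-mRNA (intron probes, top), mature mRNA (junction probes, middle) and their difference (bottom) as log2 values on each array of the 12 strains, with introns 1, 2 and 3 in blue, green and orange. The intron 1 readings of the arrays labelled Δsmd3, -1.26 and -0.66, lay below 0 while those of intron 2, 0.28 and 0.39, lay above.

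In the arrays labelled Δsmd3, probes along the same transcript thus read in opposite directions. Intron 1 was below 0 on both arrays and intron 2 above 0 on both, at 0.28 and 0.39, and whether they differ was not tested. Junctions 2 and 3 were called lower, with arrays at -0.44 and -1.18 for junction 2 (mean -0.81, SE 0.20, adjusted p = 0.014 by limma) and at -0.43 and -1.21 for junction 3 (mean -0.82, SE 0.22, adjusted p = 0.018 by limma), where 20.9% of all junction probes were called lower. Both junction calls were lost without replicate 2 (adjusted p = 0.255 and 0.305) and held without replicate 1, which stood apart (-1.18 and -1.21, adjusted p = 0.015 and 0.017). Total grx2 mRNA on these arrays read -0.28 and -0.87.

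grx2_intron3 was measured on 7 arrays, and its ratio was above 0 on all 7, from 0.40 to 1.46. Only Δaar2, at 1.068 and 0.50, and the array labelled ΔSPCC162.01c, at 0.91, had values on all of their arrays. On that array junctions 1, 2 and 3 read -1.29, -1.16 and -1.18, close to the exon probe at -1.16, and none was called. grx2 in Δpht1 was the opposite case, with junctions 2 and 3 at 0.15 and 0.45 beside an exon reading of 0.54.

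trr1_intron1 has no junction probe, so its ratio could not be taken. Its intron probe was above 0 on 17 of 19 arrays, with a median of 0.39, and it was called higher in the arrays labelled Δsmd3, at 1.13 and 0.89 (mean 1.01, SE 0.23, adjusted p = 0.0021 by limma). In those arrays 50% of all intron probes were called higher. Total trr1 mRNA on those 2 arrays was -0.01 and 0.18, so the intron stood above the exon reading on both. Without replicate 1 labelled Δsmd3, which stood apart, the call was lost (0.89, adjusted p = 0.061). In ΔSPAC20H4.06c the intron read 0.88 and 0.11, and it was not called.

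Other genes of the same pathways were read from lists. Of 24 further redox genes, 6 of 265 tests passed as higher and 0 as lower, or 2.26%, against the 0.941% of all exon tests. The genes that passed were caf5, a membrane transporter, pgr1, the glutathione reductase, and bcp1, a thioredoxin peroxidase, each in 2 strains, with means over strains of 0.52, 0.49 and 0.36. Of 25 genes of the Sty1 and Pap1 signalling pathways, 0 of 282 tests passed as higher and 2 as lower, in the arrays labelled Δsmd3. The lower share, 0.709%, was no more than the 0.873% of all exon tests. The 2 genes were srk1, a kinase bound to Sty1, and prr1, a response regulator that acts with Pap1.

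Of 30 further core stress genes, 11 of 341 tests passed as higher and 10 as lower, so the direction was mixed. These are 3.23% and 2.93%, against 0.941% and 0.873% of all exon tests. rds1 was lower in 5 of 11 strains with a mean of -1.03, and ntp1, the neutral trehalase, was higher in 3 of 11 with a mean of 0.63. SPCC663.08c, a short chain dehydrogenase, was higher in 2 of 10 with a mean of 1.28, and osr1 was higher in 2 of 12 with a mean of 1.02. cbf12 was lower in 2 of 12 with a mean of -0.23.

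Among 10 other genes of trehalose and glycerol metabolism, 7 of 92 tests passed as higher, or 7.61%, and 0 as lower. Of these 10, fba1 and tpi1 could be tested in no strain. ntp1 and dak1 passed in 3 strains each and dak2 in 1, the last 2 being dihydroxyacetone kinases. dak1 had a mean over strains of 0.56 and dak2 of 0.40, beside the 0.86 of tps1 and the -0.18 of gpd1. Among 16 chaperones, 4 of 108 tests passed as higher, or 3.70%, and 0 as lower, 3 of them for hsp78, the mitochondrial disaggregase, with a mean of 0.77, and 1 for hsp16, a small heat shock protein, with strain means from -0.35 to 3.07. hsp104, the cytosolic disaggregase, passed in none of 11 strains, with strain means from -0.82 to 1.34. Only 2 to 11 chaperones could be tested in a strain. Those named hsp60, ssa1, ssa2, sks2, ssc1 and bip1 had no test in any strain. ntp1, tpp1, gut2, hsp16, hsp104 and hsp9 are also among the core stress genes above. The calls of ntp1 and hsp16 were thus counted in both places.

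SPAC27D7.09c lies beside other genes of its family. The gene that follows it in the RefSeq gene table is SPAC27D7.11c, which was called higher in 7 of 11 strains with a mean of 1.69, and SPAC27D7.10c was called higher in 3 of 11 with a mean of 1.44, together 10 of 22 tests. On the array labelled ΔSPCC162.01c the median of these 2 genes was 0.14, the lowest of the 11 strains, and in Δash2 it was 2.997, the highest, which are also the strains with the lowest and highest SPAC27D7.09c. Binding of one probe to several of these transcripts was not tested.

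Ribosomal protein genes, which fall in many stresses, were read as a contrast. There were 138 such genes, but only 39 to 77 of them could be tested in a strain, and some in no strain. Of 667 tests, 0 passed as higher and 9 as lower, or 1.35%, against 0.873% of all exon tests. rpl1603 was lower in 5 strains, rpl102 in 3 and rps2202 in 1, with means over strains of -1.11, -0.59 and -0.53. The list median by strain, over the genes tested there and so not the same set in each, ran from -0.66 in Δctr1 to 0.03 in Δpht1. Δpht1 also had the highest catalase and peroxiredoxin readings, and Δctr1 the highest gst2 reading.

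The genes most like trr1, srx1 and grx2 in pattern, the only members with a value on all 20 arrays, were sought over 3967 exon probes. The profile was the mean of their standardised values. Over the 12 strain means grx2 had an r of -0.55 with trr1 and -0.31 with srx1, so the 3 members did not share 1 pattern. The array labelled ΔSPCC162.01c bears on both values, as it was the lowest for grx2 (-1.16) and the highest for trr1 (0.67) and srx1 (1.85). How far r depends on that array was not tested. The profile holds none of gst2, SPAC27D7.09c and tps1. The highest Pearson correlations were those of eap1 (r = 0.80), SPAC11D3.04c (0.76), pha2 (0.74), snf22 (0.73) and mrx21 (0.72). The arrays share the wild-type strain and a dye layout, and these values describe likeness to that mean only.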

How the data were processed

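The members and gene lists were chosen with earlier results of these data known, so no list gives independent support. The authors deposited log2 ratios of mutant over wild type, 1 for each probe of an array, in 2 tables whose 304160 cells compared were equal. The sources used here do not say how background was corrected, how the values were normalized and centred, or which cells were left empty. The median over all values of an array was 0 on every replicate 2 array and between -0.027 and 0.011 on the others, and no further scaling was applied. Empty values were kept as missing, and 536 control spots were left out of 15744 rows. For total mRNA 5098 exon probes were tested, with 4885 intron probes and 4697 junction probes of neighbouring exons, and 4675 events had both. Of 5279 gene identifiers, 5075 were found in the RefSeq gene table and 4232 had a symbol there. No genome build is named for the probes, so no coordinates are given.

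Each strain mean was tested against 0 with limma 3.58.1 in R 4.3.3, with 1 mean per strain over the 20 arrays, so the spread for a strain with 1 array comes from the other strains. P-values were adjusted by the Benjamini–Hochberg method within a strain over the probes of 1 type that each of its arrays measured, and the threshold was an adjusted p of 0.05. Differences among strains were tested by the F test and by contrasts of each strain with the mean of the rest. SE is that of the limma fit, and the number of arrays limits the precision. The fits were tested on simulated data. All 10 members were described, with the 3 genes of each list past the test in the most strains (ties by the absolute mean) and the 5 genes most like the members measured on all arrays. osr1 and cbf12 tied SPCC663.08c for strains passed, and both were named after their values were seen. Alternatives were a replicate block, centring, trend and robust moderation, fits of a strain's own arrays, leaving out arrays in turn or those of doubtful label, complete probes only, and the second table. Setting values shared by 3 or more probes to missing was added after seeing the data.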

Additional observations from a re-analysis of the deposited data

Results flagged for a closer look

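The results below stood out because every array of 1 strain lay on the other side of 0 from every array of a strain with a call. The difference was tested for gst2 and SPAC27D7.09c only, against the mean of the other strains, as given in the report. Total mRNA of SPAC27D7.09c was -0.33 on the array labelled ΔSPCC162.01c, against increases in Δash2, Δctr1 and Δswd1. gst2 was -1.003 on the same array, against increases in Δash2, Δppn1, ΔSPAC20H4.06c and Δswd1.

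For pre-mRNA, the grx2_intron1 probe had means of 0.081 in Δaar2, 0.39 in Δctr1 and 0.70 in ΔSPAC20H4.06c, against the lower calls in the arrays labelled Δsmd3 and ΔSPAC18G6.13. The trr1_intron1 probe read -0.0012 on the array labelled ΔSPCC162.01c, against the increase in the arrays labelled Δsmd3, and a value that close to 0 has no direction. For mature mRNA, the junctions over grx2 introns 3 and 2 read 0.45 and 0.15 in Δpht1, against the lower calls in the arrays labelled Δsmd3. The grx2_intron1 ratio was -0.053 in Δash2 and -0.045 in Δswd1, against the Δctr1 call. The grx2_intron2 ratio was -0.093 in Δash2, against the calls in Δctr1, Δpwi1 and the arrays labelled Δsmd3 and ΔSPAC18G6.13. These differences between strains were not tested, and Δash2, Δswd1 and Δpht1 rest on 1 array each.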

How the results depend on the processing

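No called value changed direction under any alternative run. Of the 22 called values, all kept their side of the threshold with the replicate block, after centring on exon probes, with the second table and without shared values. Under trend and robust moderation 13 were lost, in the fits of a strain's own arrays 6 of 16, and without the arrays of doubtful label 2 of 14, tps1 in Δctr1 and srx1 in Δpht1. Of 352 refits of these values that left out 1 array, 88 lost the call. With 1 or 2 arrays a strain, a value near the threshold can turn on the variance model or on 1 array.

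The replicate number was not a term in the main fits, as not all 28 correlations below passed 0.1. The highest correlation of the 190 array pairs, 0.92, was between replicate 2 labelled Δctr1 and replicate 2 of Δpwi1. The 2 arrays labelled Δctr1 correlated with each other at 0.61 and those of Δpwi1 at 0.41. The differences of replicate 1 minus replicate 2 correlated between strains at 0.036 to 0.78 over 28 pairs of strains (median 0.31), with 26 over 0.1. With the number as a block, 28 total mRNA tests were called higher (main 11) and 2 lower (main 0, the 2 being gst2 and grx2 on the array labelled ΔSPCC162.01c), and 5 junction tests lower (main 3). The F test then called 1 gene, SPAC27D7.09c. Against the other strains 1 test was higher, SPAC27D7.09c on replicate 2 labelled Δsmd3, as replicate 1 with that label has no value. The 4 lower were SPAC27D7.09c in Δpht1 and on the array labelled ΔSPCC162.01c, and ctt1 and grx2 on that array (main 0 for each). The cause was not tested.

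Trend and robust moderation gave 1 higher total mRNA call (main 11) and 3 higher ratio calls (main 5), and the cause was not tested. Over complete probes there were 3 higher total mRNA calls among 36 tests, fewer being possible. The fits of own arrays gave 3 higher intron calls (main 1). Without the arrays of doubtful label there were 3 higher intron calls (main 1), 0 lower (main 2) and 9 higher ratio calls (main 5).

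Leaving out 1 array at a time gave 7 to 20 higher total mRNA calls, 0 to 4 higher and 1 to 2 lower intron calls, 1 to 3 lower junction calls and 2 to 9 higher ratio calls. The ratio count was 9 without replicate 2 of Δctr1 and 2 without either array labelled ΔSPAC18G6.13. The intron count higher was 4 without replicate 2 of Δctr1 and 0 without replicate 1 labelled Δsmd3. The lower intron count was 1 without an array of Δaar2, Δppn1, Δpwi1, ΔSPAC20H4.06c or Δssu72, or without replicate 1 labelled Δsmd3 or ΔSPAC18G6.13, and the junction count was 1 without replicate 2 labelled Δsmd3. Against the other strains there were 0 to 1 lower calls, the 1 without replicate 2 of Δssu72.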
